A study of Mus musculus with 15 samples.

Results

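The libraries described here are 15 pools of 6 mouse oocytes, sorted by how much of each library came from ribosomal RNA. They were chosen by a measured value and not by a label: the share of 1 annotated rRNA gene, CT010467.1, in the total count of a library was above 5% in 9 libraries, called rRNA-rich, and below 5% in the other 6, called rRNA-poor. The highest rRNA-poor library was at 0.714% and the lowest rRNA-rich library at 12.5%, and no library lay between them. The 2 kinds were compared across genes with the 5 study groups as a factor, so that each gene is compared between libraries of the same group.

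The study asked how neurotrophin-4 (NT-4), a secreted growth factor, acts on mouse ovarian follicles grown in culture. Each library holds 6 oocytes with RNA amplified by SMART-Seq2 and sequenced in pairs. The oocytes came from ovaries of Kunming mice, an outbred stock. Preantral follicles of mice 12 to 14 days old were grown in vitro without NT-4 (IVG) or with NT-4 (IVG-NT) and sampled on day 6 or day 10. Oocytes of follicles grown in vivo (IVV), taken by puncture of antral follicles, served for comparison. The sample list gives 12 to 14 days for IVV too, but the paper's methods state that age only for the cultured follicles, so the age of the IVV mice is uncertain. Each of the 5 groups has 3 libraries, which the titles number 2, 3 and 4 in IVV and 1, 2 and 3 in the culture groups. The rRNA-rich libraries were IVV replicate 3 and replicates 1 and 2 of IVG day 6, IVG-NT day 6, IVG day 10 and IVG-NT day 10. The rRNA-poor libraries were IVV replicates 2 and 4 and replicate 3 of each culture group. In the culture groups the kind was therefore the same split as the replicate number, and the sources name no batch of library preparation, so kind and anything else that goes with the replicate number cannot be told apart. The replicates came from replicated experiments, and every p-value below measures the spread between these pooled libraries.

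Ribosomal RNA makes up most of the RNA of a cell, and the nuclear rRNAs carry no poly(A) tail. SMART-Seq2 starts cDNA synthesis from an oligo(dT) primer, which pairs with poly(A) tails and with stretches of A inside an RNA, and then copies and amplifies the cDNA over its full length. The growing oocyte stores large amounts of mRNA for use after transcription has stopped, and many of these mRNAs are held with short poly(A) tails until meiosis resumes.

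The gene that sorts the libraries, CT010467.1 (ENSMUSG00000106106), lies at chr17:39846353-39848827 of GRCm38 on the minus strand and has the biotype rRNA. Its annotated transcript of 1849 bases is the reverse complement of the 18S rRNA of the small ribosomal subunit, so that the 18S sequence reads on the opposite, plus strand. The first bases of that strand and its longest run of A, in capitals, are shown because they show which RNA was counted and its longest run of the base that oligo(dT) priming pairs with. The sequences are from the GENCODE vM21 transcripts.
18S rRNA, first bases: tacctggttgatcctgccagtagcatatgc
18S rRNA, longest run of A: gcgtttactttgAAAAAAttagagtgttca
The first stretch is at chr17:39846353-39846382, plus strand, and the second at chr17:39847155-39847184, plus strand. The longest run of A was 6 bases on the 18S strand and 4 bases on the annotated strand. The protocol does not keep the strand of the RNA, so reads of the 18S rRNA are counted for the gene annotated on the other strand.

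CT010467.1 took 37.9% of the counts of IVV replicate 3, against 0.187% and 0.227% in IVV replicates 2 and 4. In replicates 1, 2 and 3 the shares were 19.2%, 28.7% and 0.396% in IVG day 6, and 29.9%, 27.8% and 0.198% in IVG-NT day 6. They were 16.4%, 12.5% and 0.593% in IVG day 10, and 27.0%, 21.4% and 0.714% in IVG-NT day 10. Every group thus held libraries of both kinds, with the higher value on replicates 1 and 2 in all 4 culture groups. Gm23899, the other gene of this biotype that passed the filter on low counts, was at 0 to 9.40 CPM (median 0.393) against 0.147 to 0.842 CPM (median 0.492) and did not pass the test (adjusted p = 0.944). The shares of CT010467.1 chose the members and are given without a test.

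Total counts ranged from 5954262 to 55593251 per library. The smallest 2 libraries, IVG-NT day 6 replicates 1 and 2 with 5954262 and 7125348 counts, stood apart from the other 13 and from each other, and both are rRNA-rich, so that results are also given without the 3 libraries of IVG-NT day 6. The libraries carried the labelled cell type, since all 20 oocyte markers were tested and their summed level was 22042 to 35964 CPM in rRNA-rich and 27473 to 30411 CPM in rRNA-poor libraries. CPM are counts scaled to a library total of 1000000 over the genes tested, rRNA included, after correction by the TMM factors of edgeR, which set the level from the bulk of genes and so offset the share of rRNA.

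The counts of the rRNA-rich libraries came from longer transcripts. The total count ran from 5.95 to 43.5 M counts (M is 1000000) in the rRNA-rich and from 38.5 to 55.6 M counts in the rRNA-poor libraries, with overlap. Without the nuclear rRNA genes it ran from 4.17 to 38.0 M counts (median 23.2) in the rRNA-rich and from 38.2 to 55.4 M counts (median 44.3) in the rRNA-poor libraries. This measure contains the share by which the libraries were sorted, so its test result is not given. The mean exon length of the gene behind a protein-coding count ran from 6102 to 6936 bases (median 6409.8) in the rRNA-rich and from 4141 to 4597 bases (median 4281) in the rRNA-poor libraries. The 2 kinds did not overlap in this measure, and within each group every rRNA-rich library was above every rRNA-poor one. In an exact permutation test of the kind within groups, two-sided over all assignments within groups, with a smallest possible p of 0.00412, this length gave p = 0.00412, adjusted p = 0.0113 over 11 measures. The 11 include the total count without nuclear rRNA genes, so a measure tied to the sorting bears on the adjusted p of the others.

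The share of the mitochondrial rRNAs in the counts without nuclear rRNA also separated the kinds. It ran from 0.834 to 1.27% (median 1.10) in the rRNA-rich and from 0.215 to 0.766% (median 0.357) in the rRNA-poor libraries (exact permutation test, p = 0.00412, adjusted p = 0.0113). The 10 leading genes took 4.55% to 6.66% of counts in rRNA-rich and 6.51% to 7.23% in rRNA-poor libraries, a lower share within groups in the same exact permutation test (p = 0.00412, adjusted p = 0.0113). These shares overlapped slightly between the kinds. Genes detected after thinning every library to 4170564 counts ran from 10935 to 21383 (median 16504) in the rRNA-rich and from 17744 to 19911 (median 19251) in the rRNA-poor libraries, and the difference within groups was -2115 genes (exact permutation test, p = 0.0288, adjusted p = 0.0453). This difference no longer passed without IVG-NT day 6 (-1328 genes), ran from -2514 to -1205 genes when 1 library was left out (adjusted p of 0.0272 to 0.136), and in IVV the rRNA-rich library had the most genes, 21383 against 19911 and 19844. Without thinning the difference was -3688 genes. The mean GC content behind a protein-coding count was 48.7% to 49.5% and 48.8% to 49.6%, and the protein-coding share of counts 89.1% to 96.1% and 93.1% to 95.3%, in rRNA-rich and rRNA-poor libraries. Neither passed the exact permutation test (adjusted p = 0.806 and 0.942).

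**Figure D1:**
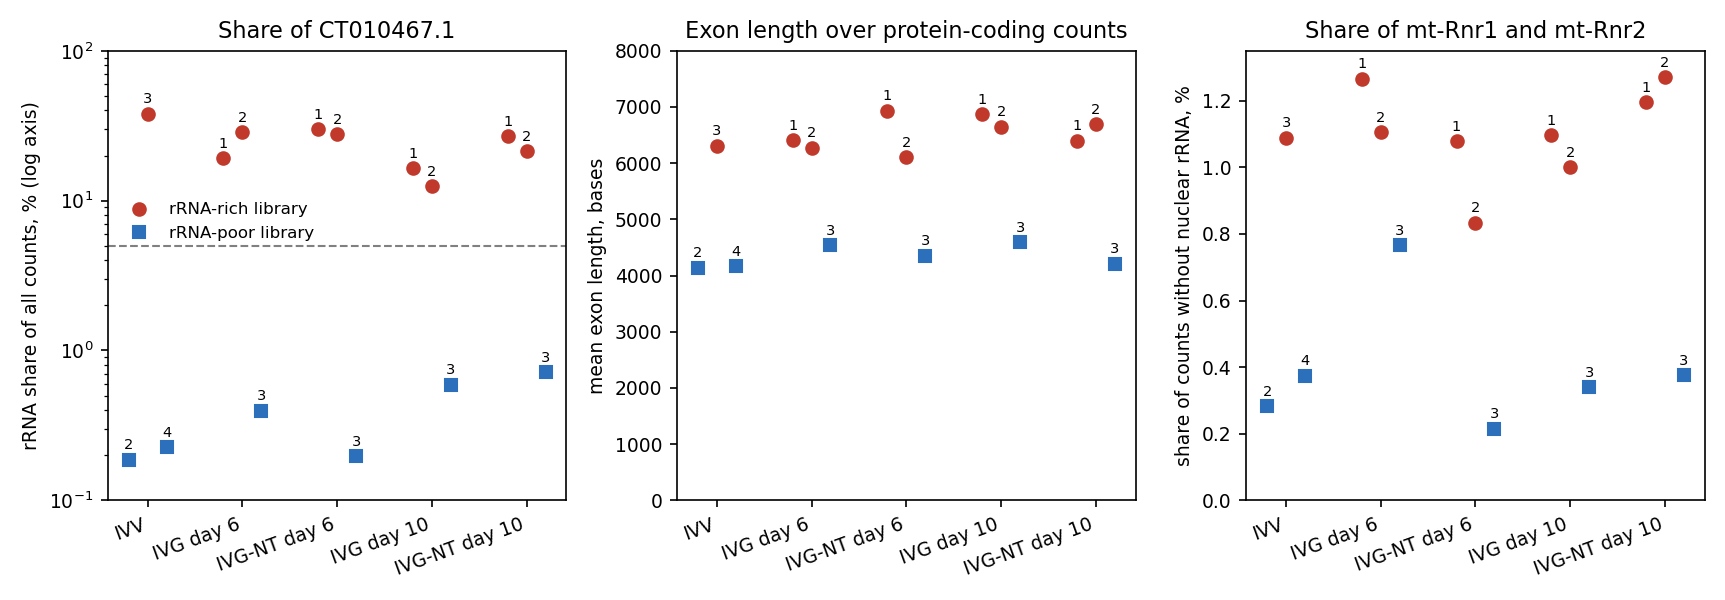
Share of CT010467.1 in all counts (left, % on a log axis, the dashed line marks 5%), mean exon length of the gene behind a protein-coding count (middle, bases) and share of the 2 mitochondrial rRNAs in the counts without nuclear rRNA (right, %), for each of the 15 libraries by group. Each point is 1 library with its replicate number, red circles are rRNA-rich and blue squares rRNA-poor, and in all 3 panels the red points lie above the blue ones of every group.

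Over all genes tested apart from nuclear rRNA, the library nearest to each library was of the same kind in 15 of 15 cases and of the same group in 3. The Euclidean distance on the log2 CPM scale had a median of 359 between libraries of the same group and different kind (10 pairs). It was 203 between rRNA-poor libraries of different groups (14 pairs) and 352 between rRNA-rich libraries of different groups (32 pairs). The rRNA-poor libraries were thus closer to each other across groups than to the rRNA-rich libraries of their own group. Without IVG-NT day 6 the same medians were 331, 192 and 321. Of the sum of squares of log2 CPM over all genes, 20.7% went to the kind after the groups and 30.8% to the groups after the kind. Without IVG-NT day 6 these shares were 34.5% and 23.3%, so the 1 degree of freedom of the kind then held more than the 3 of the groups.

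Of 21009 genes tested, 4858 were called between the kinds (23.1% of genes tested), with an adjusted p under 0.05 in edgeR's quasi-likelihood test and a log2 fold change beyond 1. The genes tested include CT010467.1, whose own difference was fixed by the sorting. In rRNA-rich libraries 1700 genes were higher (8.09%) and 3158 lower (15%), and the levels of all 9 rRNA-rich libraries were beyond those of all 6 rRNA-poor libraries for 2773 genes (13.2%). The median log2 fold change over all genes was -0.54, where 0 is the level set by TMM. It was -0.21 over protein-coding genes and 0.26 over the 1000 most abundant of them. List medians below are to be read against the value for genes of like type and abundance. Counts of list members called are to be read against the 8.09% higher and 15% lower over all genes tested. Because the kinds were set from the counts of the same libraries, these p-values say how the genes separate libraries sorted in this way. In the 12 culture libraries alone, where the titles give the same split as replicate 3 against replicates 1 and 2, 2690 of 19272 genes were called (918 higher and 1772 lower in replicates 1 and 2), and 2606 of these were among the 4858, each with the same sign. These libraries are part of the 15 and are split in the same way, so the overlap is no independent test. Without IVG-NT day 6, 7226 of 20206 genes were called, 3004 higher and 4222 lower.

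Whether the difference between the kinds itself varied between the 5 groups was tested with the interaction of group and kind. No gene reached an adjusted p under 0.05 by edgeR's quasi-likelihood F test (0.0% of genes tested), 2131 genes had an unadjusted p under 0.05, and DESeq2's likelihood ratio test called 2349. With 3 libraries in a group and 5 residual degrees of freedom, a p that misses the threshold does not show that the groups were alike. The 3 smallest interaction p were those of Ak6, Sh3bgrl3 and Btf3l4 (each with adjusted p = 0.117), all at 0 counts in IVG-NT day 6 replicates 1 and 2. Per-group differences of single genes are given below as values, and those of 1 group rest on 3 libraries.

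Among the 1000 most abundant protein-coding genes, 315 were called higher and 280 lower, and for 373 (37.3%, against 13.2% over all genes tested) the kinds did not overlap. The largest increases among them were in Lrp5, a co-receptor of Wnt ligands, and Lin28a, an RNA-binding protein of germ and stem cells that blocks let-7 processing. Lrp5 (chr19:3584828-3686564) ran from 126 to 353 CPM (median 289.8) in the rRNA-rich libraries and from 2.76 to 8.07 CPM (median 4.37) in the rRNA-poor libraries. Lin28a (chr4:134003330-134018841) ran from 222 to 483 CPM (median 309) in the rRNA-rich libraries and from 3.60 to 8.27 CPM (median 5.99) in the rRNA-poor libraries. For both genes the lowest rRNA-rich library was far above the highest rRNA-poor one. The tests gave a log2 fold change 5.82 ± 0.33 (SE), adjusted p = 2.89e-07 for Lrp5 and a log2 fold change 5.68 ± 0.33, adjusted p = 2.89e-07 for Lin28a. The difference had the same sign in all 5 groups, with log2 values of 5.37 to 6.27 for Lrp5 and 5.21 to 6.77 for Lin28a.

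Other abundant genes rose in the same way. Kmt2d, a histone H3 lysine 4 methyltransferase, ran from 134 to 2429 CPM (median 1375) in the rRNA-rich libraries and from 41.7 to 109 CPM (median 61.8) in the rRNA-poor libraries (log2 fold change 4.29 ± 0.39, adjusted p = 6.51e-06). Fat1, a large cadherin, ran from 102 to 1497 CPM (median 919) in the rRNA-rich libraries and from 15.6 to 25.8 CPM (median 22.9) in the rRNA-poor libraries (log2 fold change 5.18 ± 0.50, adjusted p = 1.13e-05). The lowest rRNA-rich values of these 2 genes were both in IVG-NT day 6 replicate 2. Atxn2l, a relative of ataxin-2 found in stress granules, ran from 604 to 1971 CPM (median 976) in the rRNA-rich libraries and from 31.4 to 90.8 CPM (median 58.0) in the rRNA-poor libraries (log2 fold change 4.10 ± 0.26, adjusted p = 4.80e-07). Midn (midnolin) and Triobp, an actin-binding protein, were higher by 4.15 and 3.94 on the log2 scale. Kit, the receptor for Kit ligand through which granulosa cells act on the oocyte, ran from 543 to 1880.4 CPM (median 1144) in the rRNA-rich libraries and from 59.4 to 115 CPM (median 71.7) in the rRNA-poor libraries (log2 fold change 3.66 ± 0.24, adjusted p = 6.72e-07). All of these genes had kinds that did not overlap. Lars2, the mitochondrial leucyl-tRNA synthetase, also had kinds that did not overlap, but its rRNA-rich levels spread from 10.8 to 8732 CPM (rRNA-poor 1.18 to 5.38 CPM), with an adjusted p of 0.0420 that rose to 0.165 in the culture libraries alone.

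Of the 8 largest decreases among abundant genes, 5 were in small mitochondrial proteins. Uqcr10, a subunit of respiratory complex III, ran from 0 to 21.1 CPM (median 9.46) in the rRNA-rich libraries and from 202 to 1015 CPM (median 663) in the rRNA-poor libraries. Timm8b, a chaperone of the mitochondrial intermembrane space, ran from 0 to 30.5 CPM (median 13.3) in the rRNA-rich libraries and from 252 to 672 CPM (median 495) in the rRNA-poor libraries. Both had 0 counts in IVG-NT day 6 replicates 1 and 2, and the other 7 rRNA-rich libraries were also below every rRNA-poor library. The fitted differences were log2 fold change -6.80 ± 0.65 (SE), adjusted p = 1.07e-05 for Uqcr10 and log2 fold change -5.96 ± 0.75, adjusted p = 9.54e-05 for Timm8b, and without IVG-NT day 6 they were -6.08 and -5.03 on the log2 scale. Ndufa2, a subunit of complex I, ran from 16.0 to 133 CPM (median 48.8) in the rRNA-rich libraries and from 391 to 1998 CPM (median 1434) in the rRNA-poor libraries (log2 fold change -4.72 ± 0.51, adjusted p = 3.10e-05). Atp5g1, which encodes a c subunit of the ATP synthase, ran from 0 to 39.7 CPM (median 31.6) in the rRNA-rich libraries and from 429 to 1178 CPM (median 695) in the rRNA-poor libraries (log2 fold change -4.63 ± 0.63, adjusted p = 1.77e-04). Uqcr11, another complex III subunit, and Sh3bgrl3, Usp50 and 0610012G03Rik completed the list, with log2 fold changes of -4.48, -5.29, -4.89 and -4.67.

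The decreases with the smallest p included those of Ubb, Elobl and Dppa3. Ubb, a polyubiquitin gene (chr11:62551171-62553213), ran from 463 to 983 CPM (median 572) in the rRNA-rich libraries and from 6763 to 11344 CPM (median 8976) in the rRNA-poor libraries (log2 fold change -3.83 ± 0.21, adjusted p = 2.89e-07). Dppa3, also called Stella, a maternal factor that protects DNA methylation in the zygote, ran from 341 to 915 CPM (median 414) in the rRNA-rich libraries and from 3945 to 8877 CPM (median 4923) in the rRNA-poor libraries (log2 fold change -3.44 ± 0.22, adjusted p = 4.80e-07). Elobl, an elongin B-like gene, ran from 762 to 1817 CPM (median 1074) in the rRNA-rich libraries and from 5559 to 9525 CPM (median 7264) in the rRNA-poor libraries (log2 fold change -2.58 ± 0.15, adjusted p = 3.49e-07). In these 3 genes the kinds were separated in every group, with per-group log2 differences of -4.57 to -3.31 for Ubb, -4.38 to -2.70 for Dppa3 and -3.00 to -1.81 for Elobl.

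**Figure D2:**
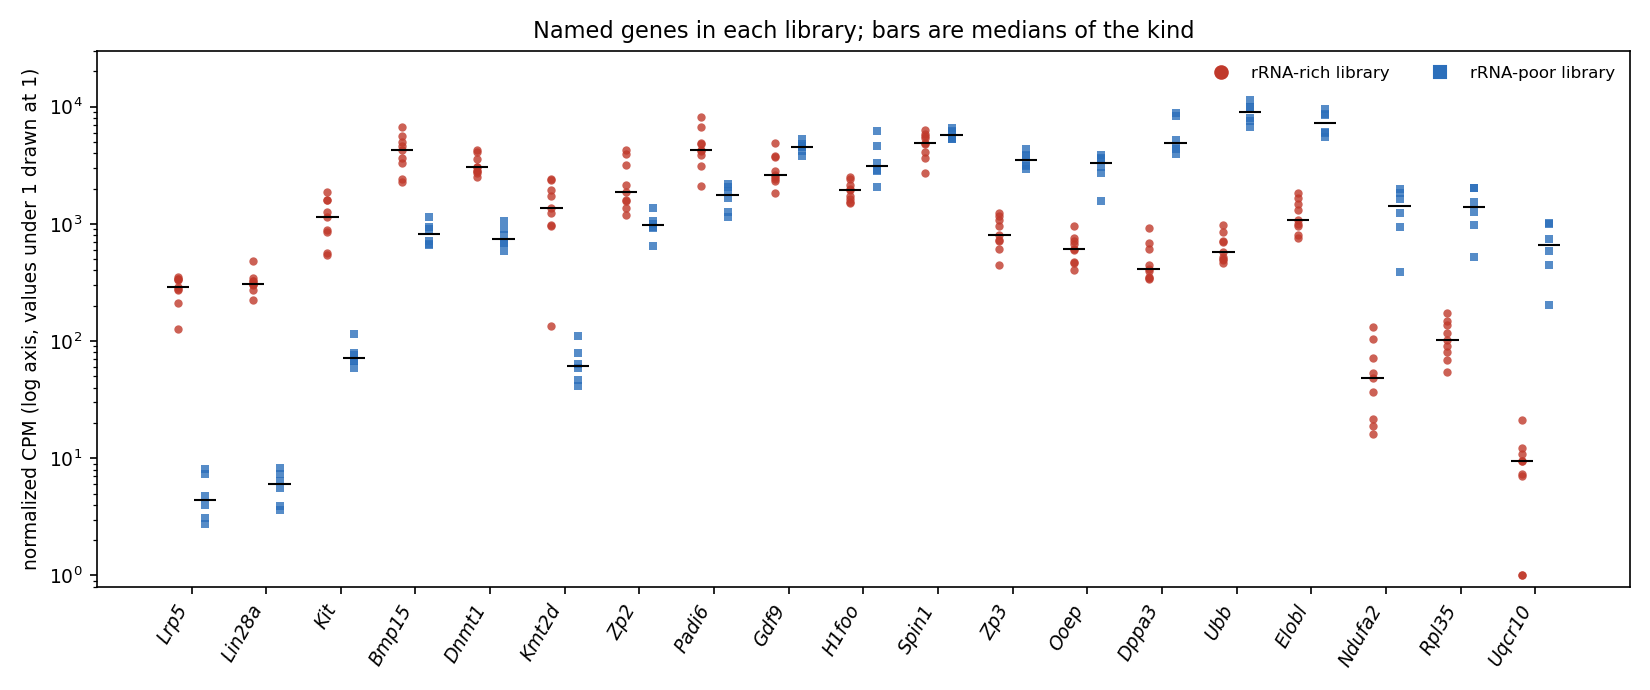
Normalized CPM (log axis) of 19 named genes in each of the 15 libraries, with red circles for rRNA-rich and blue squares for rRNA-poor libraries and a black bar at the median of each kind. The kinds are apart for genes at both ends, such as Lrp5, Lin28a, Ubb and Uqcr10 (drawn at 1 where it was below 1), and overlap for Zp2, Padi6, Gdf9, H1foo and Spin1 in the middle.

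The length of a gene's exons ordered these differences. Over 15510 protein-coding genes in quintiles of exon length (the union of all annotated exons), the median of the log2 fold changes was -1.97 at 171 to 2255 bases and -0.71 at 2256 to 3521 bases. It was -0.16 for 3522 to 5067 bases, 0.36 for 5068 to 7445 bases and 0.90 for longer genes. In the shortest quintile 2.19% of genes were called higher and 33.5% lower, and in the longest quintile 22.7% and 2.16%. The shortest genes were thus mostly among the decreases and the longest among the increases. Across genes, which are no replicates, Spearman's rho of the fold change was 0.47 with exon length and -0.01 with GC content.

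The order held in each group. From the shortest to the longest quintile the median log2 difference went from -1.72 to 1.01 in IVV and from -1.29 to 0.87 in IVG day 6. It went from -2.36 to 0.73 in IVG-NT day 6, from -1.27 to 0.98 in IVG day 10 and from -1.51 to 1.20 in IVG-NT day 10. The order was also present among genes of like abundance. In the quintile of highest mean CPM, 66.8% of the shortest genes were called lower and 50.9% of the longest higher, with medians of -1.94 and 1.24. In the quintile of lowest mean CPM the medians were -2.43 and -0.11.

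Exceptions were few among the 1000 most abundant protein-coding genes. Of 215 of them in the shortest quintile, 155 were called lower and 6 higher, among them Eif4e1b, mt-Nd5, AU022751, Gbx2 and Pcbp1, which are listed because they went against the order. Eif4e1b, an oocyte form of the cap-binding protein eIF4E, had the largest log2 fold change of these, 2.66 ± 0.44 (adjusted p = 7.27e-04). Of 272 in the longest quintile, 157 were called higher and 12 lower, led by Enox1 with -2.87 ± 0.40 (adjusted p = 2.04e-04). Lin28a and Atp5g1, with 3996 and 4912 bases of exons, lay in the middle quintile. They were still among the 8 largest increases and the 8 largest decreases of the abundant genes. The union of exons includes isoforms that the oocyte may not use, and with the longest transcript in its place the medians of the shortest and longest quintile were -2.13 and 1.02.

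**Figure D3:**
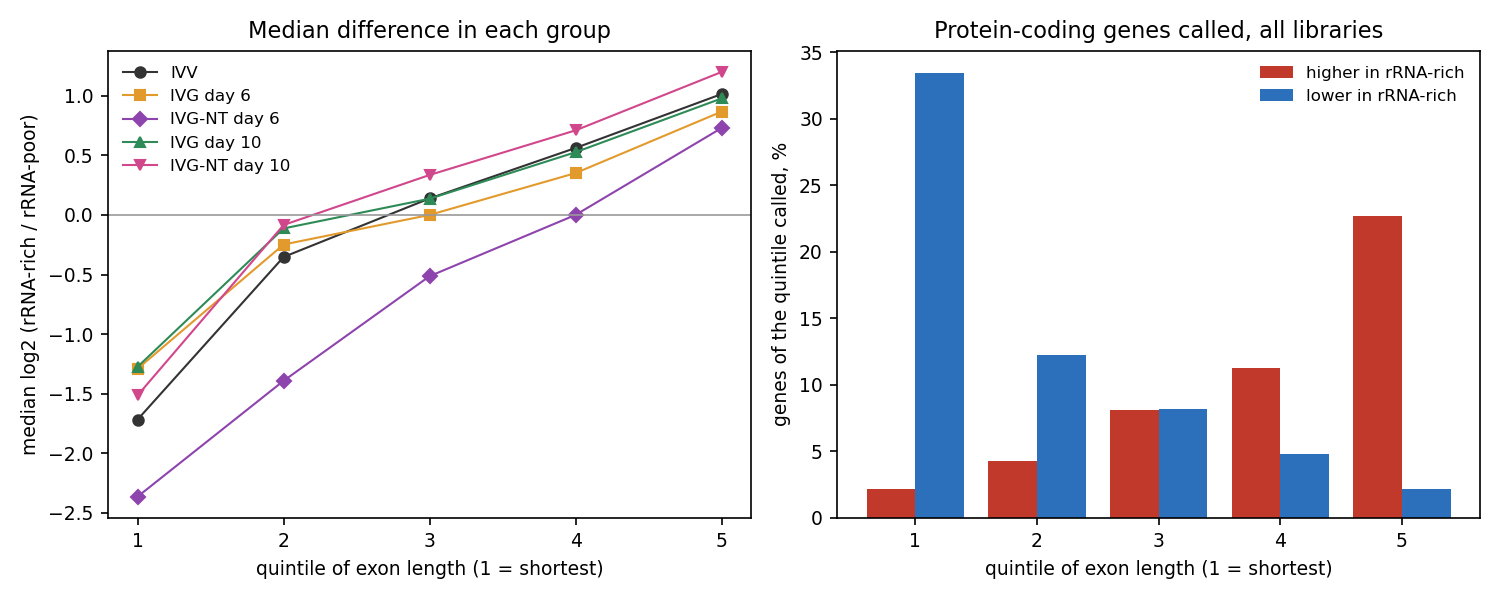
Left, median log2 difference between rRNA-rich and rRNA-poor libraries of protein-coding genes in quintiles of exon length (1 is the shortest), with 1 line for each of the 5 groups. Right, the share of genes of each quintile called higher (red) or lower (blue) in rRNA-rich libraries over all 15 libraries, in %, where the blue bars fall from 33.5 to 2.16 and the red bars rise from 2.19 to 22.7.

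Nuclear genes for respiration and for ribosomes were lower in rRNA-rich libraries. Among subunits of the respiratory chain and ATP synthase encoded in the nucleus, of 82 genes tested, 0 were called higher and 68 lower, and the median of the log2 fold changes was -3.19. Among mitochondrial ribosomal proteins, of 78 genes tested, 0 were called higher and 51 lower, and the median of the log2 fold changes was -2.41. Among cytosolic ribosomal proteins, of 86 genes tested, 0 were called higher and 59 lower, and the median of the log2 fold changes was -2.11. These lists had 82.9%, 65.4% and 68.6% of genes lower, against 8.09% higher and 15% lower over all genes tested. In the quintile of highest mean CPM, 66.8% of protein-coding genes in the shortest quintile of exon length were called lower, and 30.4% in the next quintile. Whether the lists differ from other genes of like length and level was not tested. The median exon lengths of the 3 lists were 1578, 2394 and 1754 bases, all within the 2 shorter quintiles. Without IVG-NT day 6 the counts were 0 higher and 72 lower of 82, 2 higher and 61 lower of 78 and 0 higher and 74 lower of 86. The median of the cytosolic ribosomal proteins was -0.22 in IVG-NT day 6 and -2.86 to -1.40 in the other 4 groups, so that the list was hardly lower in the former.

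The summed level of the nuclear respiratory subunits was 2180.0 to 7716 CPM in rRNA-rich and 13404 to 31625 CPM in rRNA-poor libraries. That of the cytosolic ribosomal proteins was 3532 to 14366 and 12863 to 34684 CPM, so the sums of the second list overlapped between the kinds. Within the lists, Cox5a of complex IV ran from 53.3 to 429 CPM (median 98.5) in the rRNA-rich libraries and from 661 to 1401 CPM (median 1041) in the rRNA-poor libraries (log2 fold change -3.26 ± 0.38, adjusted p = 5.62e-05). Rpl35 of the large ribosomal subunit ran from 54.8 to 174 CPM (median 102) in the rRNA-rich libraries and from 519.9 to 2041 CPM (median 1406) in the rRNA-poor libraries (log2 fold change -3.56 ± 0.33, adjusted p = 8.64e-06). Rpl5, which has 3920 bases of exons, fell by less (log2 fold change -1.21 ± 0.23, adjusted p = 0.00235), and its kinds overlapped. Mrps33 and Mrpl48 of the mitochondrial ribosome, with 1667 and 8152 bases of exons, had log2 fold changes of -3.36 and -2.06. Mrpl48 thus fell although its length is in the longest quintile. Ribosomal protein genes have many processed copies in the genome whose reads the counting can split or share, and whether this bears on their levels was not tested. Processed pseudogenes as a class had 409 lower and 70 higher of 1959 (20.9% and 3.57%, against 15% and 8.09% over all genes tested). Their median log2 fold change was -1.33 and their median exon length 641 bases.

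Proteasome subunits, which form the particle that degrades ubiquitin-tagged proteins, were lower in part. Of 48 tested, 21 were lower and 0 higher, with a median log2 fold change of -1.46. Psmb6, a catalytic subunit of the core particle, ran from 70.3 to 154 CPM (median 119.8) in the rRNA-rich libraries and from 588 to 992 CPM (median 842) in the rRNA-poor libraries (log2 fold change -2.88 ± 0.19, adjusted p = 6.72e-07). Ribosome biogenesis factors and RNA polymerase I subunits, which make the ribosome rather than form it, had 7 higher and 11 lower of 60 and a median of -0.12. These are 11.7% and 18.3%, near the 8.09% and 15% over all genes tested. In this list Bms1, a GTPase of small subunit assembly with 4854 bases of exons, rose (log2 fold change 1.61 ± 0.21, adjusted p = 1.12e-04). Fcf1, a nuclease-like factor of 18S maturation with 1117 bases, fell (log2 fold change -4.25 ± 0.45, adjusted p = 2.35e-05). Npm1, the nucleolar protein nucleophosmin, had 206 to 492 CPM in rRNA-rich and 401 to 504 CPM in rRNA-poor libraries and did not pass the test (adjusted p = 0.337).

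Genes of the mitochondrial genome did not share one direction. Of its 13 mRNAs 1 was higher and 2 were lower, with a median log2 fold change of -0.37 that was 0.00 in the culture libraries alone. The one that rose was mt-Nd5, a complex I subunit (log2 fold change 2.03 ± 0.39, adjusted p = 0.00231). mt-Co1 of complex IV was at 314 to 2031 CPM (median 849) against 760.4 to 1664 CPM (median 1377) in rRNA-rich and rRNA-poor libraries and mt-Cytb of complex III at 214 to 1476 CPM (median 521) against 172 to 651 CPM (median 447), and neither passed the test. The 2 mitochondrial rRNAs, which carry short tails of A, were called in opposite directions.

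The rRNA of the large mitochondrial subunit, mt-Rnr2 (chrM:1094-2675), ran from 6991 to 11323 CPM (median 9073) in the rRNA-rich libraries and from 1389.7 to 4199 CPM (median 2038) in the rRNA-poor libraries. The rRNA of the small subunit, mt-Rnr1 (chrM:70-1024), ran from 78.3 to 536 CPM (median 316) in the rRNA-rich libraries and from 369 to 2038 CPM (median 923) in the rRNA-poor libraries. mt-Rnr2 was thus higher in all 9 rRNA-rich libraries (log2 fold change 1.98 ± 0.17, adjusted p = 5.02e-06) and mt-Rnr1 was lower with overlapping kinds (log2 fold change -1.88 ± 0.40, adjusted p = 0.00449). The per-group log2 differences were 1.20 to 2.39 for mt-Rnr2 and -3.39 to 0.44 for mt-Rnr1, so that mt-Rnr1 was not lower in every group. Both genes lie on the plus strand, and their longest runs of A, again in capitals, are shown because these RNAs went opposite ways.
mt-Rnr2: ttaaacttgctAAAAAAAcaacaaaatcaa
mt-Rnr1: tcagcaaaccctAAAAAggtattaaagtaa
The stretches are at chrM:1477-1506, plus strand, and chrM:693-722, plus strand, with runs of 7 and 5 A. The 22 mitochondrial tRNA genes, added to the description after their values were seen, had 8 higher and 0 lower members, and the median of all was 2.23 on the log2 scale.

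Small RNAs without a poly(A) tail had few counts, so that the filter on low counts bears on which of them were tested. Among transcripts of RNA polymerase III, 6 were lower and 1 higher of 9 tested (11 in the list), with a median log2 fold change of -6.23. Rn7s1, a 7SL RNA of the signal recognition particle, ran from 1.01 to 32.9 CPM (median 5.73) in the rRNA-rich libraries and from 79.8 to 842 CPM (median 406) in the rRNA-poor libraries (log2 fold change -6.23 ± 0.84, adjusted p = 1.60e-04). Rn7s2, a near-identical copy whose reads cannot be assigned with certainty, had a log2 fold change of -6.28. Rn7sk, the 7SK RNA that holds back transcription elongation, was at 1.18 to 33.1 CPM (median 2.63) against 0.929 to 21.8 CPM (median 8.06) in rRNA-rich and rRNA-poor libraries and did not pass the test (adjusted p = 0.626). Of snoRNA, scaRNA and snRNA genes, 38 were lower and 0 higher of 62 tested among 775 with a count, and their median exon length was 143 bases. Without the filter there were 17 lower and 1 higher of 775 (median 0.63), so that the sign of the median depended on the filter. lincRNA and antisense genes had 574 lower and 40 higher members of 2051 (median -2.38), and without the filter 331 lower and 76 higher of 5063 (median -0.80). C86187, the most abundant of them, rose (log2 fold change 1.75 ± 0.22, adjusted p = 8.56e-05). Without strand, reads of an antisense gene and of its partner cannot be told apart. Among nuclear long noncoding RNAs 1 of 19 was lower and 0 were higher, and Malat1 did not pass the test (-0.33 ± 0.95, adjusted p = 0.838).

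Replication-dependent histone mRNAs end in a stem-loop in place of a poly(A) tail, and the clustered histone genes had 19 lower and 3 higher members of 62, with a median log2 fold change of -1.89. The stem-loop, searched on the transcript strand by the 16 letters set in capitals below, was found in 0.162% of the longest transcripts of protein-coding genes tested. Of these 25 genes 5 were lower and 1 was higher, with a median of -1.73. The stretches around it are shown for the gene of this set that rose and the gene that fell most, chosen after their values were seen.
Hist2h3c2: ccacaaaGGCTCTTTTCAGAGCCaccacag
Hist1h2bm: acacaaaGGCTCTTTTCAGAGCCactaagc
They lie at chr3:96238478-96238507, minus strand, and chr13:21722499-21722528, plus strand, and the capitals mark the stem-loop. Hist2h3c2 ran from 9.40 to 442 CPM (median 131) in the rRNA-rich libraries and from 0.162 to 1.68 CPM (median 0.752) in the rRNA-poor libraries (log2 fold change 7.85 ± 0.97, adjusted p = 8.16e-05), and Hist1h2bm had a log2 fold change of -7.12 ± 1.46 (adjusted p = 0.0174). These 2 genes were picked by their values from the 25, whose median was -1.73, and whether the stem-loop bears on the direction was not tested. The search covered the whole transcript, and the stretches lie at bases 621 to 650 of 1020 in Hist2h3c2 and 456 to 485 of 524 in Hist1h2bm. The annotated transcript of Hist2h3c2 thus runs further past the stem-loop than that of Hist1h2bm. Hist2h3c1, a near-identical copy of Hist2h3c2 with which it can share reads, was at 0.955 to 746 CPM (median 3.81) against 0.616 to 13.1 CPM (median 1.36) and did not pass the test (adjusted p = 0.10), so the level of either copy is uncertain. Of 12 histone genes with a poly(A) tail, 5 were lower and 0 higher. H3f3b, a gene of the replacement histone H3.3, fell (log2 fold change -1.69 ± 0.28, adjusted p = 8.48e-04), and H1foo, the linker histone of oocytes, was at 1507 to 2490.4 CPM (median 1963) against 2066 to 6204 CPM (median 3110.0) and below the limit of fold change (log2 fold change -0.88 ± 0.22, adjusted p = 0.0103).

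Genes by which oocytes are known moved both ways. Of the 20 oocyte markers 5 were higher and 8 lower (25% and 40%, against 8.09% and 15% over all genes tested). In the quintile of highest mean CPM, 26.3% of protein-coding genes were called higher and 24.2% lower. Whether the markers differ from other genes of like level was not tested. The zona pellucida genes, which encode the egg coat, included Zp3 among the lower and Zp2 among the higher. Zp3 ran from 446 to 1229 CPM (median 796) in the rRNA-rich libraries and from 2963 to 4317 CPM (median 3483) in the rRNA-poor libraries (log2 fold change -2.13 ± 0.15, adjusted p = 1.14e-06). Zp2 ran from 1185 to 4227 CPM (median 1873) in the rRNA-rich libraries and from 647 to 1364 CPM (median 972) in the rRNA-poor libraries (log2 fold change 1.12 ± 0.20, adjusted p = 0.00146), with overlapping kinds. Zp1 was at 464 to 1065 CPM (median 1001) against 517 to 1076 CPM (median 749) and did not pass the test (adjusted p = 0.508). Zp4-ps, a transcribed pseudogene, fell (log2 fold change -2.91 ± 0.75, adjusted p = 0.0135). The call of Zp3 was made in 25 of 25 alternatives, that of Zp2 in 17 of 25 and that of Zp4-ps in 20 of 25. Without IVG-NT day 6 Zp2 had a log2 fold change of 0.97 and was not called.

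Of the growth factors that the oocyte secretes, Bmp15 ran from 2291 to 6654 CPM (median 4278) in the rRNA-rich libraries and from 657 to 1133 CPM (median 816) in the rRNA-poor libraries (log2 fold change 2.27 ± 0.18, adjusted p = 2.05e-06), without overlap. Gdf9 ran from 1844 to 4904 CPM (median 2602) in the rRNA-rich libraries and from 3759.6 to 5261 CPM (median 4571) in the rRNA-poor libraries and stayed below the limit of fold change (log2 fold change -0.67 ± 0.16, adjusted p = 0.00706). Within the subcortical maternal complex, a protein assembly that embryos need for their first divisions, 4 genes were higher and 3 lower of 8. These are 50% and 37.5%, against 8.09% and 15% over all genes tested. Nlrp5 and Nlrp4f rose by 1.77 ± 0.18 and 2.21 ± 0.22 on the log2 scale (adjusted p = 1.58e-05 and 1.36e-05), and Padi6 and Nlrp2 rose with overlapping kinds (1.40 and 1.24). Ooep, Khdc3 and Tle6 fell, with log2 fold changes of -2.22, -2.31 and -1.12. Ooep ran from 403 to 965 CPM (median 614) in the rRNA-rich libraries and from 1562 to 3891 CPM (median 3338) in the rRNA-poor libraries. Zbed3 was at 2289.6 to 15912 CPM (median 6699) against 4046 to 5503 CPM (median 4479) and did not pass the test (adjusted p = 0.250). Members of a single complex therefore differed in direction between the kinds.

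Among oocyte transcription factors 4 were higher and 5 lower of 17 (23.5% and 29.4%, against 8.09% and 15% over all genes tested). Foxo3, which holds primordial follicles at rest, ran from 491 to 1594 CPM (median 1210.1) in the rRNA-rich libraries and from 113 to 181 CPM (median 167) in the rRNA-poor libraries (log2 fold change 2.89 ± 0.25, adjusted p = 4.07e-06). Obox1 and Obox2, oocyte homeobox genes with close paralogs that can share reads, fell (-2.62 and -2.58). Of the 8 control genes that the study names for oocytes, 1, Foxo3, was higher, and 2, Zp3 and Zp4-ps, were lower. Nobox, Lhx8, Sohlh2, Zp1 and Suv39h1 did not pass the test, with log2 fold changes of 0.69 ± 0.25, 0.34 ± 0.56, 0.28 ± 1.10, 0.24 ± 0.24 and 0.03 ± 0.98. Nobox ran from 401 to 1143 CPM (median 737) in the rRNA-rich libraries and from 256 to 706 CPM (median 372) in the rRNA-poor libraries, with an adjusted p of 0.0551.

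Chromatin regulators with long transcripts, a list picked for length, were mostly higher. Of 44 genes 25 were higher (56.8%) and 0 lower, against 8.09% higher and 15% lower over all genes tested. Their median log2 fold change was 1.53, and their median exon length 13663 bases. In the quintile of highest mean CPM, 50.9% of the protein-coding genes in the longest quintile were called higher. Whether the list differs from other genes of like length and level was not tested. Dnmt1, the maintenance DNA methyltransferase, ran from 2526 to 4288 CPM (median 3065) in the rRNA-rich libraries and from 584 to 1064 CPM (median 749) in the rRNA-poor libraries (log2 fold change 1.97 ± 0.17, adjusted p = 4.01e-06). Tet3, which oxidizes 5-methylcytosine in the zygote, rose with overlapping kinds (log2 fold change 1.50 ± 0.32, adjusted p = 0.00479). Factors of polyadenylation, deadenylation and tail binding had 13 higher (28.3%) and 3 lower (6.52%) members of 46 (median 0.67, median exon length 5776 bases). Tent5c, a noncanonical poly(A) polymerase, rose (log2 fold change 1.48 ± 0.18, adjusted p = 6.29e-05), and Pabpn1l, an oocyte poly(A)-binding protein with 1193 bases of exons, fell (log2 fold change -1.59 ± 0.22, adjusted p = 1.92e-04). Btg4, the adaptor of maternal mRNA deadenylation, was at 424 to 1526 CPM (median 1029) against 1069 to 2022 CPM (median 1449) and did not pass the test (adjusted p = 0.0675). The small RNA pathway had 4 higher (15.4%) and 1 lower (3.85%) of 26. Among them were Dicer1, which cuts small RNAs from their precursors (1.70), and Gtsf1, a short gene of the piRNA pathway (-2.95).

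mRNAs that the oocyte stores for later tailing often carry a cytoplasmic polyadenylation element, searched here as TTTTAT or TTTTAAT in the last 150 bases of the longest transcript and found in 23.1% of the protein-coding genes tested. The median log2 fold change of genes with it was 0.00 and that of genes without it -0.29. Within quintiles of exon length the medians were -1.83 with and -2.00 without it in the shortest and 0.94 and 0.89 in the longest quintile. Among 34 maternal mRNAs known to be stored in this way 5 were higher and 10 lower (median -0.30). These are 14.7% and 29.4%, against 8.09% and 15% over all genes tested. Spin1, a reader of histone methylation, was at 2742 to 6373 CPM (median 4858) against 5257 to 6516 CPM (median 5776) and did not pass the test (adjusted p = 0.140), while Dcp1a, a decapping factor, rose (log2 fold change 2.37 ± 0.37, adjusted p = 5.55e-04).

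The longest run of A inside the transcript, a feature added after the rRNA sequence had been read, gave a like picture. Transcripts with runs of up to 7 A, of 8 to 11 A and of 12 and more A had median log2 fold changes of -0.40, 0.15 and 0.30 (11062, 2876 and 1535 genes). Longer transcripts hold longer runs, and within the longest quintile the same 3 medians were 0.95, 0.84 and 0.89. Within the shortest quintile they were -2.00, -1.62 and -1.67, so that the medians differed less between runs of A than between quintiles of length. Quintiles of GC content had medians from -0.25 to -0.16.

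**Figure D4:**
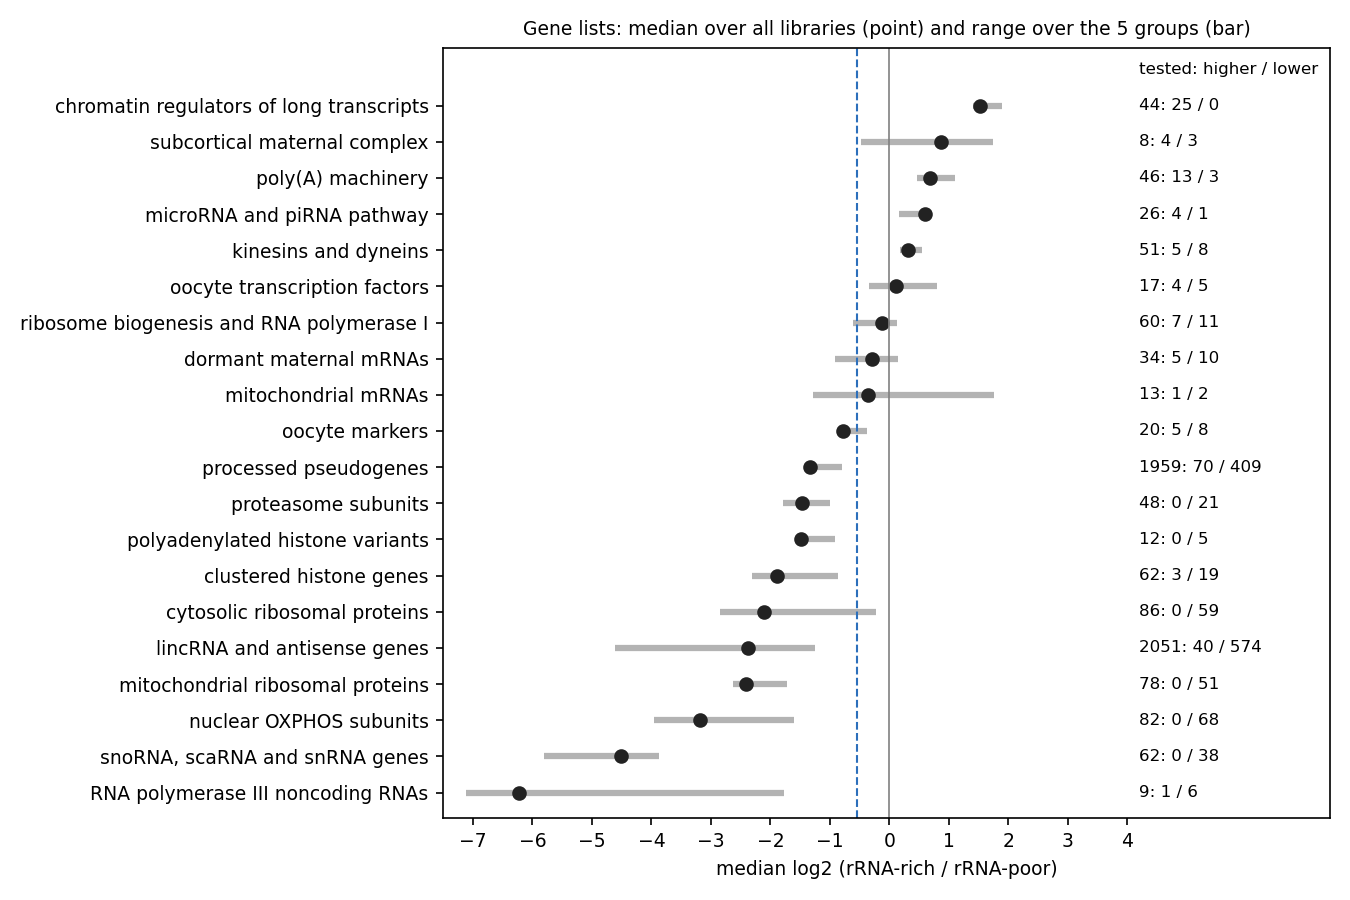
Median log2 fold change between rRNA-rich and rRNA-poor libraries for the tested members of 20 gene lists (points) with the range of the medians in the 5 groups (grey bars), and at the right the number of members tested and called higher or lower. The dashed line is the median of all genes tested, -0.54, and the lists run from RNA polymerase III transcripts at -6.23 to chromatin regulators at 1.53.

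Markers of cells that surround the oocyte were low in both kinds. Of 15 granulosa markers tested 0 were called in either direction by edgeR's quasi-likelihood test, 1 had an unadjusted p under 0.05 and DESeq2's Wald test called 1. Their summed level was 139 to 537 CPM in rRNA-rich and 110.4 to 357 CPM in rRNA-poor libraries, and all 18 in the list had a count. Theca and stroma markers summed to 9.07 to 132 CPM in rRNA-rich and 5.15 to 70.6 CPM in rRNA-poor libraries. Of 12 tested 2 were lower (16.7%, near the 15% over all genes tested) and 0 higher. Macrophage markers were lower for 3 of 8 (37.5%, against 15% over all genes tested). Their sums were 5.05 to 59.6 CPM in rRNA-rich and 35.3 to 67.2 CPM in rRNA-poor libraries. Of the 12 in the list 6 had no count in any rRNA-rich library, so lower was the only direction open to those of them that were tested. C1qb, a complement component made by macrophages, ran from 0 to 33.7 CPM (median 6.89) in the rRNA-rich libraries and from 29.5 to 63.1 CPM (median 41.7) in the rRNA-poor libraries (log2 fold change -2.30 ± 0.68, adjusted p = 0.0249), and was called in 14 of 25 alternatives. Red blood cell markers had 3 lower and 0 higher of 6 and summed to 0 to 4.73 CPM in rRNA-rich and 0.162 to 38.9 CPM in rRNA-poor libraries. The hemoglobin genes Hba-a1, Hba-a2 and Hbb-bt were called lower, with 0 counts in all 9 rRNA-rich libraries and up to 13.1, 10.0 and 3.74 CPM in rRNA-poor ones, with the highest value of each in IVG-NT day 10 replicate 3. Having no count in any rRNA-rich library, they passed the filter on low counts through rRNA-poor libraries alone, so lower was the only direction open to them. The calls were made in 21 of 24, 9 of 21 and 5 of 23 of the alternatives that tested the gene. That of Hbb-bt was lost whichever library was left out, that of Hba-a2 without 10 of the 15 libraries, and all 3 were lost without IVG-NT day 10 replicate 3. In pooled oocytes, fewer cells of a type and less RNA per cell cannot be told apart, and the part of these cells in the differences between kinds was not tested.

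Stress genes were called in both directions. Of heat shock and endoplasmic reticulum stress genes 3 were higher and 1 lower of 26 (median -0.15), of immediate early genes 1 and 1 of 23 (median -0.15), and of p53 targets and cell death genes 1 and 1 of 21 (median 0.33). The sign of the last 2 medians changed under some of the alternatives. Over all genes tested 8.09% were called higher and 15% lower. Each of these stress lists had a smaller share called lower. The share called higher was above that of all genes for heat shock and endoplasmic reticulum stress genes and below it for the other 2 lists. Whether these shares differ from those of all genes was not tested. Hspa8, a constitutive heat shock protein, was at 115 to 429.5 CPM (median 281) against 412 to 763 CPM (median 544) and below the limit of fold change (log2 fold change -0.90 ± 0.22, adjusted p = 0.00987). Egr1, an immediate early transcription factor, rose with overlapping kinds (log2 fold change 2.14 ± 0.57, adjusted p = 0.0162) and was called in 19 of 25 alternatives. The lowest rRNA-rich level of Egr1, 2.09 CPM, was in IVG-NT day 6 replicate 2. Motor proteins of the kinesin and dynein families had 5 higher and 8 lower of 51, which is 9.80% and 15.7%, close to the 8.09% and 15% over all genes tested. Dynlrb1, a light chain of 1009 bases of exons, fell (log2 fold change -2.21 ± 0.34, adjusted p = 4.31e-04).

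Olfactory receptor genes, a large family that detects odours in the nose, had low counts in both kinds. Of 1093 such genes 602 had a count and 108 passed the filter on low counts. Of these 108, 14 were higher and 3 lower (13.0% and 2.78%, against 8.09% and 15% over all genes tested). The summed level of the whole list was 374 to 6578 CPM (median 459) in rRNA-rich and 175 to 253 CPM (median 235) in rRNA-poor libraries, without overlap. The highest sums were in IVG-NT day 6 replicates 1 and 2, and the other 7 rRNA-rich libraries had 374 to 1079.6 CPM, still above the rRNA-poor ones. Without that group 9 higher and 10 lower of 81 genes were called, so that the balance of the calls rested on it. Of vomeronasal receptors, which detect pheromones, 5 were higher (11.4%) and 2 lower (4.55%) of 44. Their sums were 23.3 to 2267 CPM (median 43.2) in rRNA-rich and 19.3 to 63.1 CPM (median 27.1) in rRNA-poor libraries.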

How the data were processed

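Oocyte pools were prepared with SMART-Seq2, a full-length protocol without molecular identifiers or strand. Per the authors, reads were trimmed of adaptors, filtered for quality and aligned with HISAT2 to mm10 (GRCm38). The deposited files of the 15 samples hold raw counts per Ensembl gene, whole numbers without normalization, and how counts were taken per gene is not given in the sources used here. A table of the whole series was not used. Of 55401 gene identifiers, 99.5% were matched to symbols, biotypes, exons and transcripts of GENCODE vM21.

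Libraries were sorted by the share of CT010467.1 in the deposited counts at a limit of 5%, a limit drawn with the shares in view. The subject, its members, the gene lists and the tests were chosen with earlier results of these data known. Genes with enough counts for edgeR's filterByExpr (minimum count 10) by the 5 groups were tested with edgeR 4.0.16 in R 4.3.3 (TMM factors, glmQLFit and glmQLFTest, group and kind as factors, Benjamini-Hochberg adjustment over all genes tested). A gene was called at an adjusted p under 0.05 and a log2 fold change beyond 1, and the standard error was the fold change divided by the root of F. The script was tested on simulated data. Per-library measures were compared with exact permutation tests, two-sided, of the kind within groups. The study's limits, edgeR with P under 0.05 and the same fold change, were tried as an alternative with an unadjusted p, along with DESeq2 1.42.0, other scalings and filters, the replicate number as a block, subsets of groups and leaving out each library. Precision is set by 9 and 6 libraries and by totals of 5954262 to 55593251 counts, and replicates differed by more than counting noise (chi-square per gene of 48.4 or more).

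Named are CT010467.1 and tested rRNA genes, the 8 genes of largest fold change in each direction among the 1000 most abundant protein-coding genes that were called without overlap of the kinds, the 4 of smallest p in each direction, members of highest mean CPM of each list, the 3 of smallest interaction p and the study's control genes. Some genes that these rules name are not reported here. Genes that went against the order by length, Hist1h2bm, Hist2h3c2 in the stem-loop set and the mitochondrial tRNAs beyond these rules were chosen after their values had been seen. Python plots used matplotlib 3.10.9.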

Additional observations from a re-analysis of the deposited data

Results flagged for a closer look

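Within each kind of library, the values of every gene named in the report and of the per-library measures were searched for a single library far from the rest of its kind, that is, with a gap to the nearest library larger than Dixon's 95% limit for its share of the range. Of 190 sets of values 16 held such a library, and chance alone gives about 1 in 20. In each case it was the highest library of its kind. In IVG-NT day 6 replicate 1, which is rRNA-rich, this held for Usp50 (171 CPM, others 0 to 67.0 CPM), Mrpl48 (164 CPM, others 53.9 to 100.4 CPM), Malat1 (1169 CPM, others 4.27 to 137 CPM), Zp4-ps (9.40 CPM, others 0 to 4.43 CPM) and Suv39h1 (24.2 CPM, others 0 to 5.82 CPM). In IVG-NT day 6 replicate 2, which is rRNA-rich, this held for Lin28a (483 CPM, others 222 to 343 CPM), Gtsf1 (481 CPM, others 17.7 to 168 CPM), Dynlrb1 (233 CPM, others 57.1 to 107 CPM) and Gm23899 (9.40 CPM, others 0 to 0.720 CPM). In IVG day 6 replicate 3, which is rRNA-poor, this held for the share of mitochondrial rRNAs (0.766%, others 0.215 to 0.376%), Kit (115 CPM, others 59.4 to 79.6 CPM) and mt-Rnr2 (4199 CPM, others 1389.7 to 2430.3 CPM). In IVG-NT day 10 replicate 3, which is rRNA-poor, this held for Hba-a1 (13.1 CPM, others 0 to 1.46 CPM), Hba-a2 (10.0 CPM, others 0 to 0.427 CPM) and Hbb-bt (3.74 CPM, others 0 to 0.704 CPM). In IVG-NT day 6 replicate 3, which is rRNA-poor, this held for Lhx8 (224 CPM, others 118 to 135 CPM).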

How the results depend on the processing

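No gene called between the kinds was called in the other direction in any of the alternatives run, but the number of calls varied. Against 4858 genes, 35.0% of them higher, DESeq2's Wald test called 7610 genes (2376 higher, 5234 lower), and an unadjusted p under 0.05 with the same limit on the fold change called 7376 genes (2578 higher, 4798 lower). The culture libraries by replicate number gave 2690 genes (918 higher, 1772 lower). Leaving out IVG-NT day 6 gave 3004 higher and 4222 lower genes, and IVV with day 10 alone 3367 higher and 3911 lower, 46.3% of the calls being higher. The other scalings, filters and call rules stayed within 1.5 times the reported total. The median log2 fold change of all genes was -0.54 with TMM and -0.71 with DESeq2's size factors.

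With the replicate number as a block, 328 genes (159 higher, 169 lower) were called, 48.5% of them higher, with 43 named genes among the calls against 78. In the culture groups the block and the kind are nearly the same split, so fewer calls there are no sign of a weaker difference. Whether a shared number marks a shared experiment is not given in the sources used here, and the pairing limit of 0.1 was not met by every pair: deviations from group means correlated at 0.07 to 0.73 between same-numbered libraries, and the difference of replicates 1 and 2, both rRNA-rich, at -0.03 to 0.06 between groups.

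Leaving out 1 library gave 2260 to 5931 genes called, 914 to 2317 higher and 1346 to 3614 lower. The total fell by more than 1.5 times without IVG-NT day 10 replicate 3 (2260), IVG day 6 replicate 3 (2574), IVG day 10 replicate 3 (2606), IVV replicate 2 (3223) and IVV replicate 4 (3227), all rRNA-poor. Without a culture group's only rRNA-poor library, that group no longer bears on the kind. Named genes called numbered 64 to 81, and 20 to 24 of 33 gene lists had a median below 0. The interaction of group and kind, 0 genes as reported, called 8 without a filter, 2349 with DESeq2's likelihood ratio test, 1 without IVG-NT day 6 and 0 to 3739 without 1 library. The highest counts were 3739 without IVG-NT day 6 replicate 1 and 2631 without its replicate 2, and the cause was not tested. Over a smaller set of the most abundant genes the nearest library was of the same group in 5 cases, against 3.

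Per-library measures are differences within groups, rRNA-rich minus rRNA-poor. With nuclear rRNA kept in the totals, shares restate the rRNA share that set the kinds and count as no test: the protein-coding share differed by -22.1 percentage points and that of lincRNA and antisense genes by -0.857, and the shares of the 10 and 100 leading genes turned to 21.4 and 16.1, since CT010467.1 then counts among them. In the culture groups alone, processed pseudogenes (-0.730) and the 100 leading genes (-2.57) no longer passed. Without IVG-NT day 6, genes detected (-1328) and the 100 leading genes (-2.04) no longer passed, and protein-coding (1.44) and lincRNA and antisense shares (-0.825) did. Leaving out 1 library gave -2514 to -1205 genes detected, -0.341 to 1.31 for the protein-coding, -0.749 to -0.164 for the lincRNA and antisense, -0.973 to -0.544 for the pseudogene and -3.29 to -1.85 for the 100 leading genes' share, while the exon length kept to 1646 to 2093 bases and the share of mitochondrial rRNAs to 0.530 to 0.691 points, each past the test. The depth of IVG-NT day 6 replicates 1 and 2 limits what could be detected in genes of few counts.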
